A study of Mus musculus with 20 samples.

Results

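Transcripts of 10 genes of the circadian clock were followed in RNA-seq libraries of the proximal colon (PC) of 20 C57BL/6 mice. The genes were taken by name from a list of core clock and clock output genes (Bmal1, Per1, Per2, Per3, Cry1, Dbp, Tef, Nr1d1, Nr1d2 and Ciart), and all 10 were among the 12701 genes of the count table. All mice were weaned onto the Total Western Diet (TWD), which resembles what people in the United States commonly eat, and stayed on it for 6 weeks. Over 3 further weeks raw potato starch (RPS), a starch that resists digestion, made up 0, 2, 5 or 10% of the TWD, with 5 mice on each diet. Each library came from a whole PC segment of a different mouse, so that fewer cells of a type and less RNA per cell cannot be told apart. Mice were kept on a light/dark cycle, and the time of day at which each mouse was killed is not given in the sources used here. Libraries held 20581013 to 35083751 counts. Marker genes of colon epithelium were detected in every library (9 of 9 listed markers, summed level 824408 to 1498312 normalised counts).

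As background, the clock is a transcriptional feedback loop that runs in most cells, including those of the gut wall. BMAL1 pairs with CLOCK or NPAS2 and activates genes that carry an E-box in their promoter. Among those genes are the PER and CRY repressors, which block the activator and so close the loop. REV-ERB proteins (Nr1d1 and Nr1d2) repress Bmal1 through ROR elements, and the PAR bZIP factors DBP and TEF activate genes at D-boxes. In tissues with a running clock, Bmal1 and many, though not all, of the genes it activates peak at opposite times of day.

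Promoter sequences of the clock genes are shown because the 10 genes differ in which of these elements they hold. The sequences are from GRCm39, read 5′ to 3′ on the strand of the gene, with the element in capitals. The E-box (CACGTG, the same on both strands) was found in a window of 300 bases, 250 before and 50 after the start of the canonical transcript, in 4 of the 10 clock genes and in 9.82% of 12651 promoters. The last base shown lies 16 bases before the start for Ciart and Cry1, 6 for Per1 and 116 for Tef.
Ciart, chr3:95789572-95789666, reverse strand: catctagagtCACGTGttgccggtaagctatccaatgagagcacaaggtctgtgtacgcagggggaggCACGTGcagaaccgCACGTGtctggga
Cry1, chr10:85020965-85021009, reverse strand: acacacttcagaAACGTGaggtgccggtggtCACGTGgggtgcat
Per1, chr11:68989223-68989262, forward strand: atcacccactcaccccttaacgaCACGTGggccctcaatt
Tef, chr15:81695460-81695499, forward strand: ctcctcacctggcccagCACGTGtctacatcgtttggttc
Ciart held 3 E-boxes in this stretch. The Cry1 stretch also held the related E-prime box (CACGTT, here on the opposite strand and so read as AACGTG), which was searched on both strands and does not overlap the E-box in its letters. The E-prime box was found in 3 of the 10 clock genes (Cry1, Nr1d1 and Per2) and in 5.79% of promoters. Nr1d1 held an E-prime box in this window, and an E-box only in a longer window of 1000 bases before the start, where 5 of the 10 clock genes and 17.63% of promoters had an E-box.
Nr1d1, chr11:98666210-98666249, reverse strand: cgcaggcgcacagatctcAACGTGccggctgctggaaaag
The D-box (TTANGTAA, both strands) was found in the 300-base window of Per2 and Per3 only among the 10 clock genes, and in 1.82% of promoters.
Per3, chr4:151129266-151129335, reverse strand: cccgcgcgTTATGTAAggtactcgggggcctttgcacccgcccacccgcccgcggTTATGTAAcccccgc
Per2, chr1:91387147-91387186, reverse strand: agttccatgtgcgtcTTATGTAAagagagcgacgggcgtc
The ROR element (both strands) was found in 1 clock gene, Dbp, and in 0.6% of promoters. The cyclic AMP element (TGACGTCA) was found in 0 of the 10 and in 3.14% of promoters. Bmal1 and Nr1d2 held none of the elements searched, the ROR element included, in the 300-base or the 1000-base window. Only exact matches at the canonical start were searched, so elements with other letters or near another start would be missed. Dbp held no E-box in these windows. Some genes held more than 1 kind of element, such as Per2 with an E-prime box and a D-box. These matches describe letters in a window and were not tested as binding sites.

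The activator Bmal1 (ENSMUSG00000055116, chr7:112806152-112914735, forward strand), which encodes the partner of CLOCK, varied widely between mice on the same diet (gene positions are from GENCODE M39 on GRCm39). Its normalised counts, which are counts divided by the size factor of the library, were 852, 1615, 398, 667 and 263 in the 5 mice fed 0% RPS and 393, 412, 1476, 882 and 540.0 in those fed 2%. They were 723, 509, 404, 838 and 580.4 with 5% RPS and 1352, 1088, 674, 381 and 1125 with 10% RPS. The highest and the lowest library of all 20 were both in the 0% RPS group, and the 4 diets overlapped. The spread of 6.13-fold between the highest and the lowest library was larger than that of its partner Clock, whose range was 1.33-fold. The SD of log2 Bmal1 within diets was 0.77, above that of 99.3% of the 11541 genes whose mean reached 100 normalised counts.

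Dbp (ENSMUSG00000059824, chr7:45354512-45359627, forward strand), which encodes an output factor of the clock, had the largest SD within diets of the 10 genes, with an SD of log2 values of 1.29, above that of 99.8% of the 11541 genes. Its counts were 752.6, 175, 1625, 1602 and 2596 in mice fed 0% RPS and 1919, 1995, 178, 838 and 1303 in those fed 2% RPS. They were 1105, 1105, 1793, 704 and 1501 with 5% RPS and 172, 318, 1228, 1873 and 958 with 10% RPS. In 4 libraries, replicate 2 of 0% RPS, replicate 3 of 2% RPS and replicates 1 and 2 of 10% RPS, Dbp was between 172 and 318, and in the other 16 it was at least 704. Bmal1 was between 1088 and 1615 in those 4 libraries, and 1 of the other 16 (replicate 5 of 10% RPS, 1125) reached into that range. The transcript of Dbp overlaps Sphk2 on the opposite strand, and whether strand was used in counting is not given in the sources used here. Sphk2 itself ranged 1.58-fold and did not pass the test for association with Bmal1 (log2 change per SD -0.07 ± 0.04 (SE), adjusted p = 0.372, DESeq2). With Dbp in place of Bmal1 in that test, Sphk2 rose by 0.11 per SD of log2 Dbp and passed (SE 0.03, adjusted p = 0.0287, DESeq2). Whether reads of Sphk2 entered the counts of Dbp was not tested.

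The same 4 libraries stood apart from the other 16 in 5 further clock genes. Ciart (ENSMUSG00000038550, chr3:95785815-95789991, reverse strand), a repressor of the BMAL1-CLOCK pair, was 38.6 to 88.8 in the 4 libraries and 149 to 636 in the other 16. Tef (ENSMUSG00000022389, chr15:81686622-81711064, forward strand), a PAR bZIP factor like Dbp, was 999 to 1569 against 1962 to 6057. These 2 genes, like Dbp, were thus lower in each of the 4 libraries than in any other. Per3 (ENSMUSG00000028957, chr4:151081373-151129140, reverse strand), a member of the PER family, was 268 to 467 against 496 to 2059. Nr1d2 (ENSMUSG00000021775, chr14:4230545-4266624, forward strand), which encodes REV-ERB beta, was 1261 to 2120.0 against 2196 to 4313. Cry1 (ENSMUSG00000020038, chr10:84967560-85021252, reverse strand), a strong repressor of the activator pair, went the other way and was 734 to 1015 in the 4 libraries against 352 to 699. The ranges overlapped for Per1, Per2, Nr1d1 and Bmal1. Because the 4 libraries were chosen for their Dbp values, these ranges are a description with no test.

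**Figure D1:**
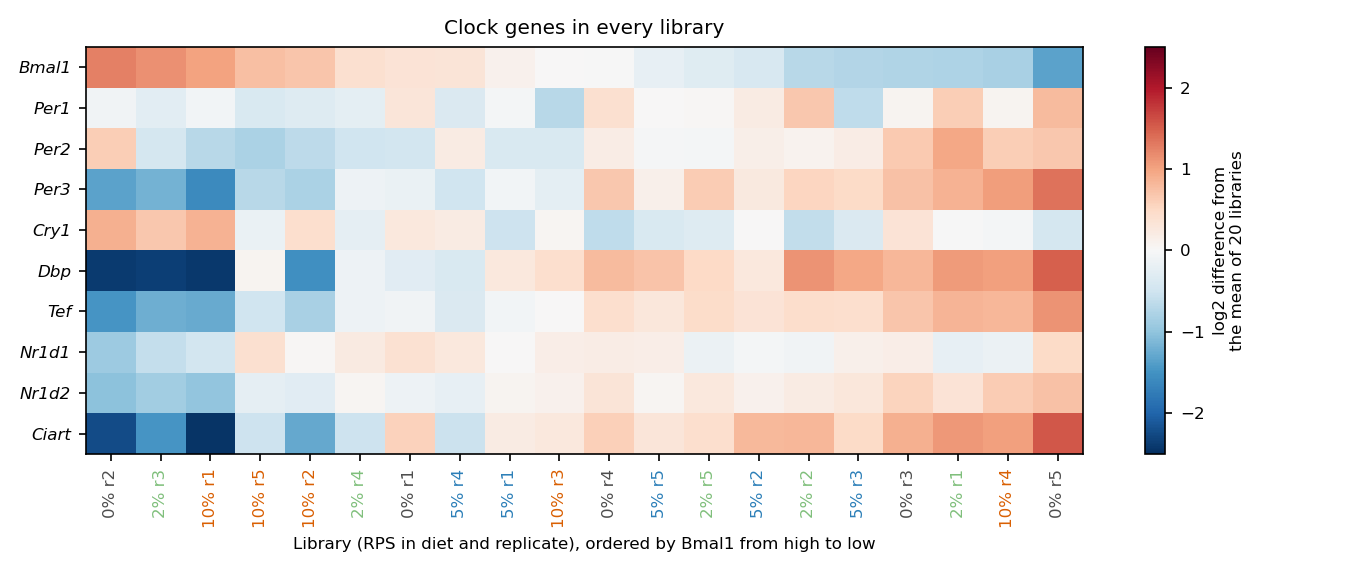
The 10 clock genes in each of the 20 libraries, as the log2 difference of the normalised count plus 1 from the mean over libraries; columns are libraries ordered from high to low Bmal1 and named by % RPS and replicate (r). Dbp, Ciart, Tef, Per3 and Nr1d2 are blue in the 3 libraries at the left, where Bmal1 is red, and red in the 4 at the right, and libraries of the 4 diets are mixed along the order.

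The levels of the members were compared per kilobase of the canonical transcript. Nr1d1 was the most abundant (mean 1253 ± 269 normalised counts per kilobase, SD over 20 libraries), followed by Tef (728 ± 327), Dbp (646 ± 373) and Nr1d2 (479 ± 146). Per1 (262 ± 77.1), Per2 (204 ± 75.6), Cry1 (190.2 ± 66.2), Bmal1 (178 ± 92.0), Per3 (154 ± 80.5) and Ciart (137 ± 79.1) lay lower. The ranges over libraries of neighbours in this order overlapped throughout.

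The first question of the design was whether RPS changed these transcripts. No clock gene passed the test in any of the 6 contrasts between diets (DESeq2, adjusted p of 0.05 or less over all genes and a fold of at least 1.5), and edgeR also called 0 of the 10 in each contrast (0.323% of all genes for 10% and 0.0566% for 5% against 0% RPS, and 0% in the other 4). Of all genes tested in DESeq2, 0.9% were called for 10% against 0% RPS, 0.438% for 5% against 0%, 0.0239% for 2% against 0%, 0.0557% for 10% against 2%, 0.00796% for 10% against 5%, and 0% for 5% against 2%. A count of 0 in 10 is therefore near the background. At an unadjusted p under 0.05, both tools gave Per1 and Per2 for 10% against 0%, Per1 for 5% against 0% and for 10% against 2%, and 0 genes for the other 3 contrasts. Of all genes tested in DESeq2, 18.8% had an unadjusted p under 0.05 for 10% against 0%, 16.6% for 5% against 0% and 9% for 10% against 2%, so that these counts too are near the background. Over the 4 diets together the likelihood ratio test called 0 of the 10 (2.38% of all genes), as did edgeR (0.0566% of all genes), with 1 of the 10, Per1, at an unadjusted p under 0.05 in both, as were 14.3% of all genes in DESeq2 and 12.1% in edgeR.

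The estimates for 10% against 0% RPS were below 0 for 8 of the 10 clock genes, beside 6273 of the 12561 genes tested. Their median was -0.55 on the log2 scale, beside a median of 0 over all genes. For 2% and for 5% against 0% RPS all 10 were below 0, Bmal1 included, beside 6570 and 6599 of 12561 genes. The 10 estimates are not independent, because genes such as Per3 and Tef went together across mice (r of 0.984). The 5 genes that followed Bmal1 most closely in the opposite direction had estimates of -0.68 ± 0.50 (SE) for Per3, -0.57 ± 0.68 for Dbp, -0.52 ± 0.45 for Tef, -0.27 ± 0.31 for Nr1d2 and -0.82 ± 0.62 for Ciart, each with an adjusted p of at least 0.463. Bmal1 itself was estimated at 0.28 ± 0.47 (adjusted p = 0.779, DESeq2), Cry1 at 0.09 ± 0.27 and Nr1d1 at -0.12 ± 0.20. The 95% interval of the change was -1.90 to 0.76 for Dbp and -2.05 to 0.40 for Ciart, and changes within these intervals are not excluded. For Nr1d1 the interval was narrower, -0.50 to 0.27. Because the 3 RPS diets were compared with the same 5 control mice, the contrasts with 0% RPS share those values.

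**Figure D2:**
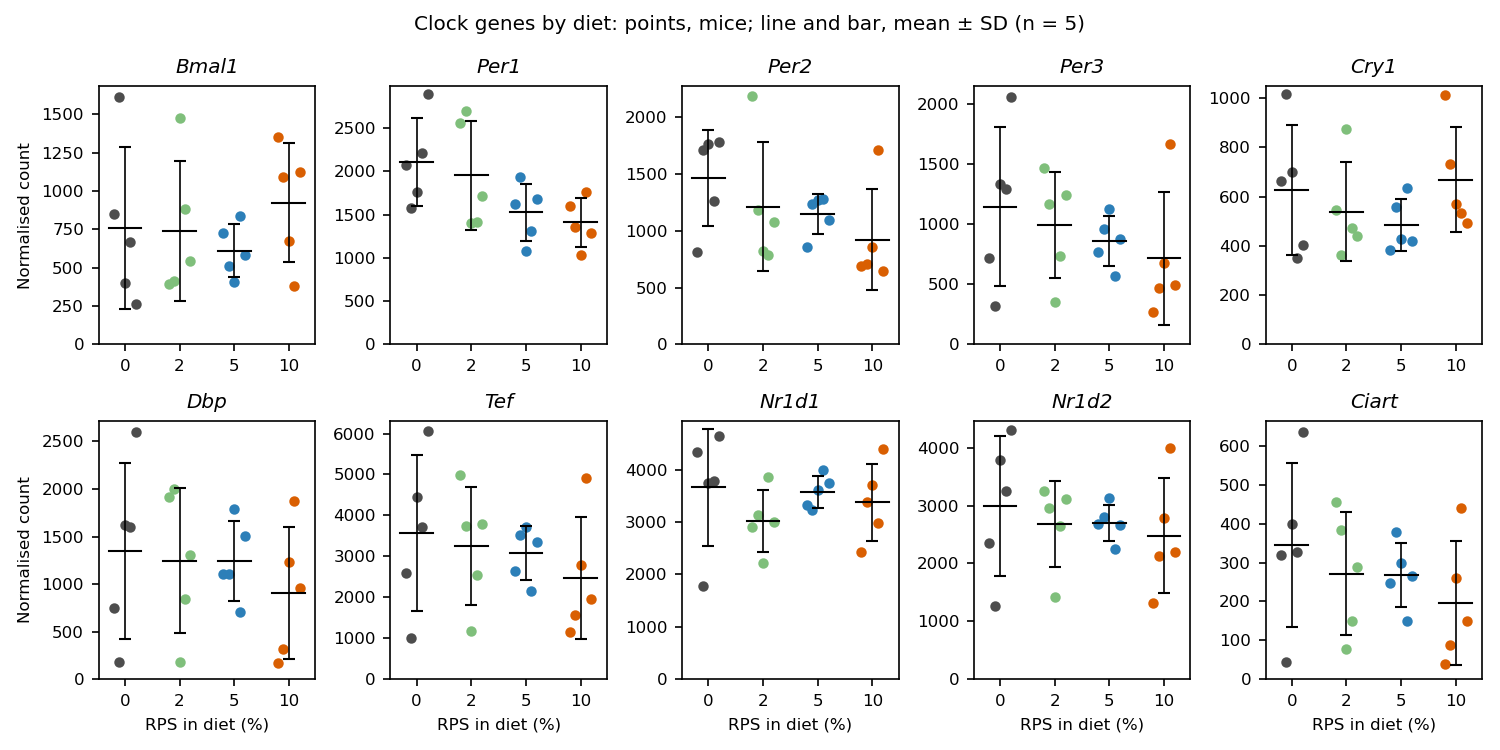
Normalised counts of the 10 clock genes in each mouse (points) by % RPS in the diet, with the mean (line) and SD (bar) of 5 mice per diet. The diets overlap in every gene, and the mean of Per1 falls from 2105 at 0% to 1409.8 at 10% RPS.

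Per1 (ENSMUSG00000020893, chr11:68986035-69002300, forward strand), a PER repressor that is also known to respond quickly to hormones and other signals, was the 1 clock gene called for a trend with the dose of RPS in DESeq2. Its counts were 2078, 1582, 1758, 2213 and 2896 in mice fed 0% RPS and 2564, 2704, 1400.0, 1414 and 1711 in those fed 2%. They were 1619.9, 1934, 1082, 1315 and 1685 with 5% RPS and 1606, 1353, 1035, 1764 and 1292 with 10% RPS. The mean was 2105 ± 508 (SD, n = 5) without RPS and 1409.8 ± 283 with 10% RPS, and these 2 groups overlapped. The change for 10% against 0% was -0.58 ± 0.21 and did not pass (adjusted p = 0.0836 in DESeq2 and 0.152 in edgeR). Fitted against the percentage of RPS over all 20 libraries, Per1 fell by 0.06 on the log2 scale per 1% RPS and passed the test in DESeq2 (adjusted p = 0.0426), while edgeR gave an adjusted p of 0.103. Among the 10 clock genes it was 1 called, where 4.29% of all genes were called (2.4% with a positive and 1.89% with a negative slope), and edgeR called 0 of the 10 and 1.33% of all genes. The call was lost when any 1 of 10 of the 20 libraries was left out, with adjusted p reaching 0.158 without replicate 3 of 10% RPS. Of the variance of log2 Per1, 34.3% lay between diets, the highest share of the 10 genes, against a median of 17.9% over the 11541 genes whose mean reached 100 normalised counts and a share of 15.8% expected from the degrees of freedom.

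Per2 (ENSMUSG00000055866, chr1:91343700-91387069, reverse strand), also a PER repressor, was 813, 1716, 1762, 1262 and 1781 in mice fed 0% RPS and 693, 704, 858, 1708 and 648.5 in those fed 10% RPS. With 2% RPS it was 2190.4, 1186, 825, 789.5 and 1076 and with 5% RPS 859, 1239, 1272, 1284 and 1095. In 4 of the 5 mice fed 10% RPS Per2 was between 648.5 and 858, and replicate 4 lay at 1708. The change for 10% against 0% was -0.67 ± 0.32 (adjusted p = 0.22, DESeq2). Its slope on the percentage of RPS was -0.06 per 1% RPS, as steep as that of Per1, and did not pass (adjusted p = 0.203, DESeq2). Without replicate 4 of 10% RPS the change for 10% against 0% was -1.02 with an adjusted p of 0.00605, and Per2 then passed. That library was also among the 3 of 20 whose animal numbers lie outside the run of the others, and without those 3 the change was -0.97 (adjusted p = 0.0496) and the slope passed (-0.09, adjusted p = 0.0339), while that of Per1 did not (-0.07, adjusted p = 0.0619). With log2 Bmal1 as a covariate, the change of Per2 was -0.60 (adjusted p = 0.117) and that of Per1 was -0.45 (adjusted p = 0.133).

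The second question was how the clock genes went together across mice. With diet in the model, the change of each gene per SD of log2 Bmal1 was fitted over all genes. Of the 9 other clock genes, 7 passed the test (DESeq2, adjusted p of 0.05 or less over all genes), where 6.09% of all genes did. Of these, 6 fell with rising Bmal1 and 1, Cry1, rose, where 3% of all genes fell and 3.09% rose. edgeR called 6 of the 9 and 3.62% of all genes. The clock genes were listed with earlier results of these libraries known, so that the count is not independent evidence of the direction.

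Dbp fell by 1.06 on the log2 scale per SD of Bmal1 (SE 0.14, adjusted p = 1.44e-11), Ciart by 0.95 (SE 0.10, adjusted p = 1.03e-16) and Per3 by 0.77 (SE 0.06, adjusted p = 3.68e-37). Tef fell by 0.71 (SE 0.05, adjusted p = 2.4e-42) and Nr1d2 by 0.46 (SE 0.05, adjusted p = 2.44e-19). These 5 genes include both PAR bZIP factors of the list. They passed in each of the 29 alternative fits of this association. Log2 Bmal1 was standardised anew in each fit, so a slope with libraries left out is per SD of the libraries kept. Its size is therefore not comparable with that over all 20 libraries. Without the 4 libraries lowest in Dbp, a set chosen on Dbp itself, the slopes were -0.49 for Dbp, Ciart and Per3, -0.42 for Tef and -0.24 for Nr1d2. Tef had the largest absolute correlation with Bmal1 of 11540 genes, Per3 the second and Nr1d2 the third.

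Correlations of log2 values over the 20 mice were computed as well. For Tef Pearson's r with Bmal1 was -0.964 (Spearman's rho -0.974), for Per3 -0.951 (-0.943), for Nr1d2 -0.924 (-0.955), for Ciart -0.915 (-0.928) and for Dbp -0.908 (-0.935). Each had a permutation p of 1e-05, the smallest that 100000 permutations can give. With the diet means removed, these 5 r were between -0.962 and -0.902, and without the 2 libraries farthest from the median Bmal1 (replicates 2 and 5 of 0% RPS) they were between -0.953 and -0.885. Leaving out the 4 libraries lowest in Dbp gave -0.947 to -0.879 over 16 libraries. In all, 9 correlations with Bmal1 were computed, and the p adjusted over all genes are those of the fits above.

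**Figure D3:**
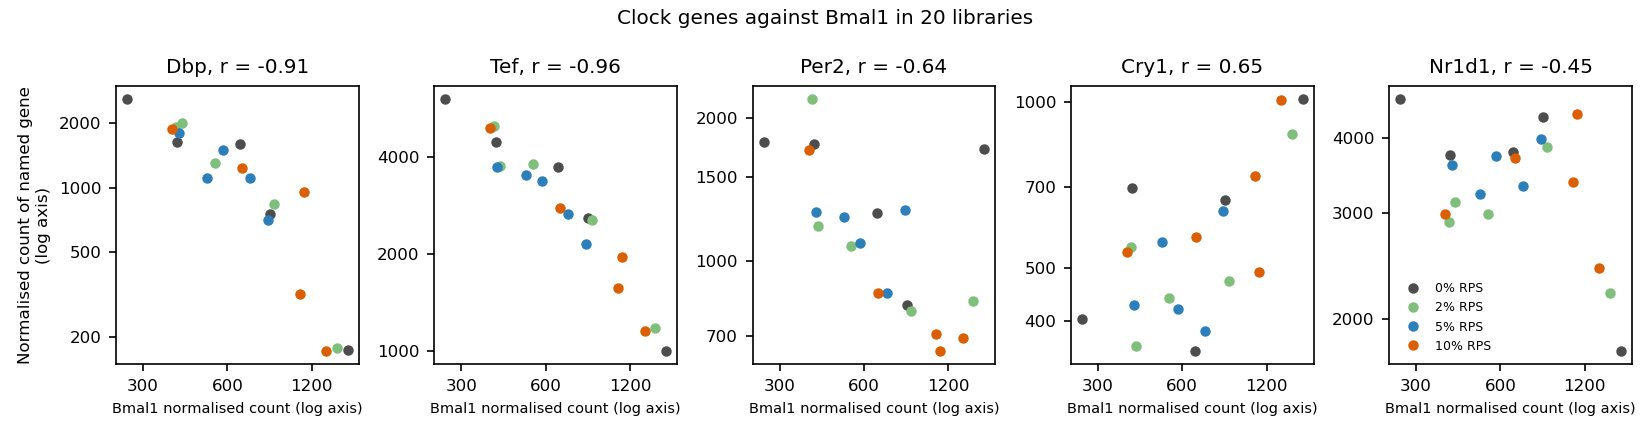
Normalised counts of Dbp, Tef, Per2, Cry1 and Nr1d1 against Bmal1 in 20 libraries, on log axes, coloured by % RPS, with Pearson's r of log2 values. Dbp and Tef fall along 1 line in all diets, and the 3 libraries highest in Bmal1 are low in Nr1d1.

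Per2, Cry1, Per1 and Nr1d1 followed Bmal1 less closely. Per2 fell by 0.29 per SD (SE 0.09, adjusted p = 0.0241 in DESeq2 and 0.0652 in edgeR), with r of -0.639 (permutation p = 0.00267). Replicate 2 of 0% RPS, the highest in Bmal1, had Per2 at 1716, and without it Per2 fell by 0.42 per SD (adjusted p = 1.03e-06). Without replicate 4 of 10% RPS the slope was -0.21 and did not pass (adjusted p = 0.193), nor did it without replicate 3 of 2% RPS (-0.27, adjusted p = 0.075).

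Cry1 rose by 0.29 per SD of Bmal1 (SE 0.08, adjusted p = 0.0115 in DESeq2 and 0.0449 in edgeR), with r of 0.647 (permutation p = 0.0022). In the 4 libraries lowest in Dbp, Cry1 was higher than in the other 16, and without them its slope was 0.05 (adjusted p = 0.967) and r was 0.161 (permutation p = 0.5495). Leaving out those 4 libraries, chosen for low Dbp, also narrows the range of both genes. The lower r therefore cannot show whether the relation of Cry1 with Bmal1 rests on them. Without the 2 libraries farthest from the median Bmal1, r was 0.538. With single libraries left out r stayed between 0.57 and 0.72, and the slope was 0.24 (adjusted p = 0.118) without replicate 2 of 0% RPS, 0.26 (0.0563) without replicate 5 of 0% RPS and 0.24 (0.0848) without replicate 3 of 2% RPS.

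Per1 had a slope of -0.19 ± 0.07 and did not pass (adjusted p = 0.0659 in DESeq2 and 0.128 in edgeR), with r of -0.496 (permutation p = 0.02561), and r of -0.4 (permutation p = 0.09998) without the 2 libraries farthest from the median Bmal1. Per1 passed in 5 of 29 alternative fits, with adjusted p between 0.00966 without replicate 3 of 5% RPS and 0.0412 with the smooth muscle score as a covariate. Nr1d1 (ENSMUSG00000020889, chr11:98658752-98666188, reverse strand), which encodes REV-ERB alpha, had a slope of -0.14 ± 0.07 (adjusted p = 0.26 in DESeq2 and 0.35 in edgeR). Its r was -0.447 (permutation p = 0.04674) and its rho -0.137 (permutation p = 0.5645). Nr1d1 was 1768, 2213 and 2431 in the 3 libraries highest in Bmal1 and at least 2900.5 in the other 17. Over the 16 libraries without the lowest Dbp its r with Bmal1 had the opposite sign, 0.335 (permutation p = 0.2032). Nr1d1 overlaps Thra on the opposite strand, and Thra ranged 1.45-fold with a slope of 0.04 ± 0.04 (adjusted p = 0.626, DESeq2).

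**Figure D4:**
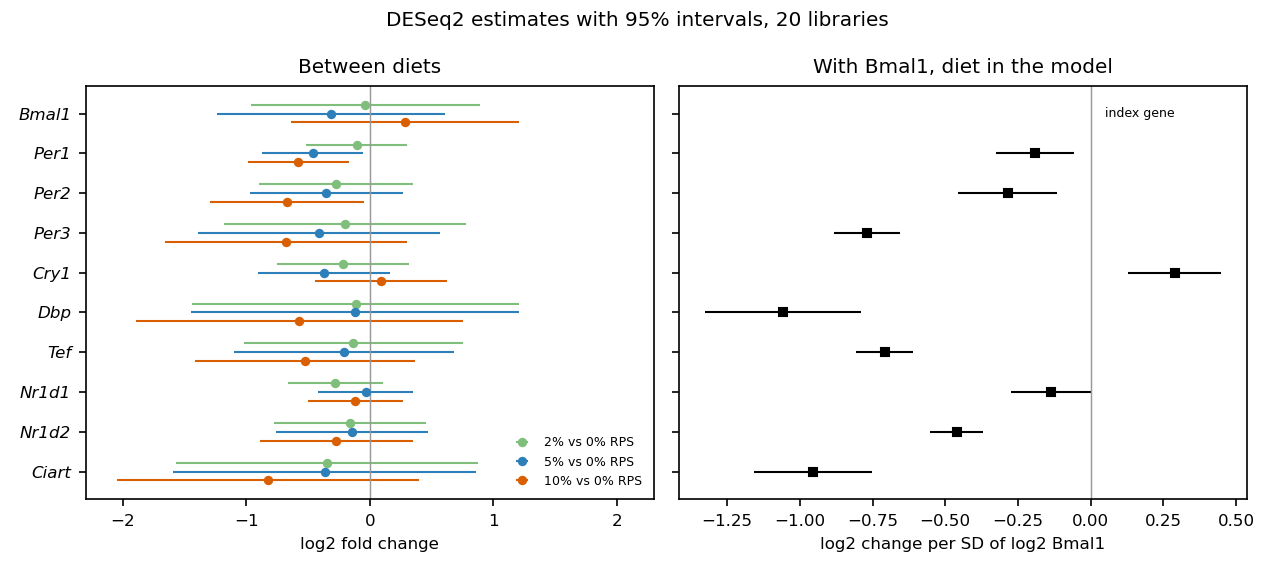
DESeq2 estimates (points) with 95% intervals (bars) for the 10 clock genes: the log2 fold change of each RPS diet against 0% RPS at the left and the log2 change per SD of log2 Bmal1 with diet in the model at the right. Intervals at the left mostly span 0, and those at the right lie below 0 for 7 of the 9 genes other than Bmal1, above 0 for Cry1 and across 0 for Nr1d1.

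Among the 45 pairs of clock genes, 21 had r of at least 0.5 and 12 had r of -0.5 or lower. The pair of Per3 and Tef had r of 0.984, and the 10 pairs among Per3, Tef, Nr1d2, Dbp and Ciart ranged from 0.928 to 0.984. Over the 16 libraries without the lowest Dbp these 10 pairs ranged from 0.801 to 0.982. Cry1 went against each of these 5 genes, with r between -0.839 for Dbp and -0.724 for Per3, but over the 16 libraries these r were between -0.443 and -0.1. Per1 and Per2 had r of 0.507 with each other. These correlations share libraries and genes and are given as a description.

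**Figure D5:**
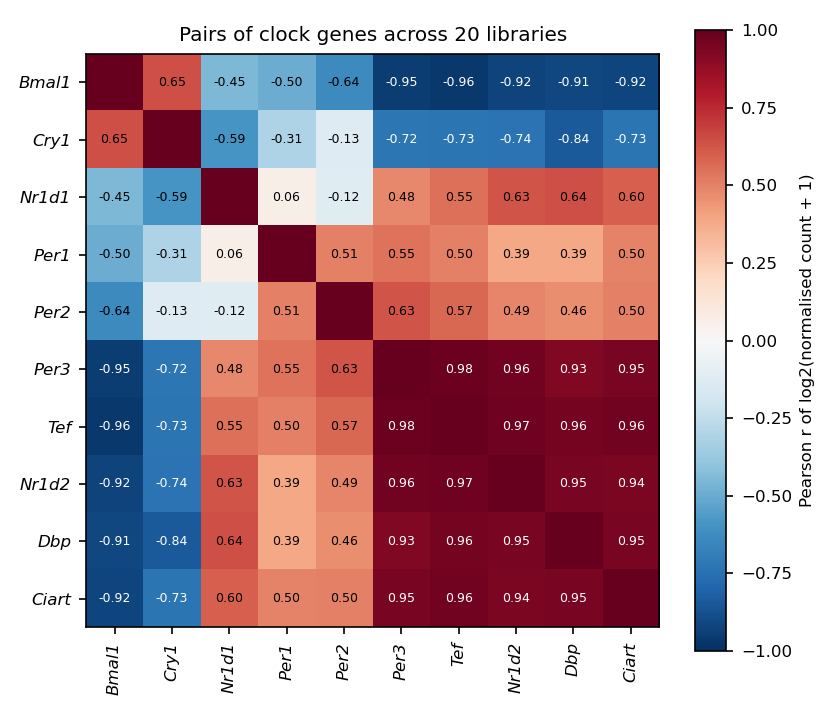
Pearson's r of log2(normalised count + 1) for each pair of the 10 clock genes over 20 libraries. Per3, Tef, Nr1d2, Dbp and Ciart form a block of r from 0.93 to 0.98 that is negative against Bmal1 (-0.96 to -0.91) and Cry1 (-0.84 to -0.72).

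Of 10 further loop factors considered here, 6 were in the table. Of these, 5 passed for association with Bmal1 in DESeq2 and in edgeR, where 6.09% and 3.62% of all genes did. Npas2, which can take the place of Clock, rose by 0.52 per SD (SE 0.06, adjusted p = 2.36e-16), and Nfil3, a repressor at D-boxes, by 0.68 (SE 0.08, adjusted p = 5.99e-16). Without the 4 libraries lowest in Dbp, Nfil3 rose by 0.40 per SD of the libraries kept (adjusted p = 3.77e-06). Clock rose as well, by 0.07 (adjusted p = 0.0116), but did not pass without replicate 2 of 0% RPS (0.05, adjusted p = 0.198) or without the 4 libraries (0.02, adjusted p = 0.857). Hlf, the PAR bZIP factor next to Dbp and Tef, fell by 0.60 (SE 0.06, adjusted p = 2.44e-19), and Cry2 by 0.28 (SE 0.04, adjusted p = 5.53e-10). Without the 4 libraries Cry2 fell by 0.18 per SD of the libraries kept (adjusted p = 0.0141).

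The 5 genes with the smallest adjusted p among those that rose with Bmal1, and had a mean of 100 normalised counts or more, were Npas2, Nfil3, Eln (elastin), Dennd2b and Styk1. The 5 among those that fell were Tef, Per3, Hlf, Nr1d2 and Ciart, of which 4 are members. Eln rose by 0.43 per SD (SE 0.05, adjusted p = 3.98e-12). Without replicate 2 of 0% RPS, its highest library, it rose by 0.37 per SD of the libraries kept (adjusted p = 1.83e-07).

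Of 8 listed genes that cycle in many tissues, 4 fell as Bmal1 rose (Usp2, Tspan4, Wee1 and Nampt) and 1 rose with it (Tsc22d3). edgeR called the same 5, where DESeq2 called 6.09% of all genes and edgeR 3.62%. Usp2 and Tspan4 also passed without replicate 2 of 0% RPS, without replicate 4 of 10% RPS and without the 4 libraries lowest in Dbp. Wee1 did not pass in these 3 fits (adjusted p = 0.104, 0.0654 and 0.736), and Nampt did not pass without replicate 4 of 10% RPS (adjusted p = 0.0813). Tsc22d3 rose by 0.26 per SD but had a slope of 0.15 and did not pass without replicate 2 of 0% RPS (adjusted p = 0.254), nor without the 4 libraries (0.08, adjusted p = 0.863). Of 8 genes known to be induced by glucocorticoids, 3 rose (Sgk1, Zbtb16 and Tsc22d3), where 3.09% of all genes did, and Per1 is among the other 5. Each of these 3 lost its call in DESeq2 when 1 library was left out: Sgk1 without replicate 4 of 10% RPS (adjusted p = 0.102), Zbtb16 without that library (0.125) or replicate 2 of 0% RPS (0.156), and Tsc22d3 as above. Without the 4 libraries lowest in Dbp, 0 of the 3 passed (adjusted p of 0.314 for Sgk1 and 0.904 for Zbtb16). Of 7 genes for enzymes and cofactors that modify clock proteins, 0 passed for association with Bmal1 in DESeq2 and in edgeR. At an unadjusted p under 0.05 was 1 (Timeless), as were 19.3% of all genes in DESeq2 and 18.7% in edgeR. For the trend with dose, 1 of these 7, Fbxw11, was called in DESeq2 and 0 in edgeR, where 4.29% and 1.33% of all genes were called. Fbxw11 rose by 0.016 on the log2 scale per 1% RPS (adjusted p = 0.0205 in DESeq2 and 0.0849 in edgeR). Of 9 immediate-early genes, which respond quickly to stimuli, 0 passed for association with Bmal1 in both tools. At an unadjusted p under 0.05 were 3 (Egr1, Ier2 and Junb) in DESeq2 and 2 in edgeR, against 19.3% and 18.7% of all genes. The median slope on log2 Bmal1 over all genes was 0.0024.

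Markers of other cell types were followed beside Bmal1. Of 5 fibroblast markers, 3 rose with Bmal1 in DESeq2 (Col1a1, Col1a2 and Col3a1), where 3.09% of all genes did, and edgeR called Col1a1. All 5 had an unadjusted p under 0.05 in both tools, as did 19.3% of all genes in DESeq2 and 18.7% in edgeR. With the smooth muscle score in the model the same 3 passed (adjusted p = 1.47e-12, 0.00112 and 0.00844, DESeq2). The summed level of the 5 had r of 0.546 with Bmal1 and -0.511 with Dbp. That sum was 15324 to 46863 in mice fed 0% RPS, 14230.0 to 24728 with 2%, 16163 to 21893 with 5% and 16507 to 25093 with 10%. Its highest value was in replicate 2 of 0% RPS, which was also highest in Bmal1, and without that library 0 of the 3 passed in DESeq2 (Col1a1 0.20 per SD, adjusted p = 0.0636). Of the markers of epithelium (9), smooth muscle (7), enteric neurons and glia (6) and immune cells (4 in the table), 0 passed in DESeq2 and in edgeR, with 3, 0, 1 and 1 at an unadjusted p under 0.05 in DESeq2 (19.3% of all genes). Their sums had r with Bmal1 of 0.028, 0.222, -0.22 and 0.374, total counts had r of 0.099, and 0 of these markers were at 0 in any library. The slopes of the 5 genes that followed Bmal1 most closely in the opposite direction passed with the smooth muscle score in the model and without replicate 2 of 0% RPS. The part of fibroblast content in these associations was not tested.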

How the data were processed

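RNA was extracted from PC tissue, and stranded mRNA libraries were sequenced as single reads of 50 bases. Per the study's methods, the authors removed low-quality bases and ambiguous reads and counted the rest in CLC Genomics Workbench on GRCm39. The deposited values are raw counts per gene, not normalised and not pooled. The annotation, use of strand, treatment of reads with several matches and how the 12701 genes of the table were selected are not given in the sources used here.

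Libraries were grouped by the diet in their labels (n = 5 mice, replicates numbered in accession order). Of the gene identifiers, 12682 were matched to GENCODE M39. DESeq2 1.42.0 (R 4.3.3) was fitted on the whole table with all 20 libraries, with Wald tests between diets, a likelihood ratio test over 4 diets, a slope on % RPS, and a slope on standardised log2(normalised count + 1) of Bmal1 with diet in the model. DESeq2 was the main test because the study used it, and edgeR 4.0.16 (quasi-likelihood) was an alternative. P values were adjusted by Benjamini-Hochberg over all genes, and genes were called at an adjusted p of 0.05 or less, with a fold of at least 1.5 between diets. Other alternatives were TMM scaling, a filter on low counts, no independent or Cook filtering, covariates, and leaving out libraries. In each fit log2 Bmal1 was standardised over the libraries kept. Both tools were tested on simulated data. Correlations used 100000 permutations, two-sided. Genes named beside the members were the 5 with the smallest adjusted p in each direction whose mean reached 100 normalised counts, and the listed genes that passed for association with Bmal1. Fbxw11 was named for its trend with dose. Members and lists were chosen with earlier results of these data known. With totals of 20581013 to 35083751 counts, 3 counts equal 0.0855 to 0.1458 CPM, and all members were far above this. Counts of libraries of 1 diet differed by more than sampling noise. Promoters were searched at GENCODE M39 canonical starts. A listed gene is not reported here.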

Additional observations from a re-analysis of the deposited data

Results flagged for a closer look

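In 64 groups of 5 libraries (a gene in a diet), the highest or lowest library was tested for its gap to the next, and 4 groups had a library that stood apart, where chance gives about 1 in 20. Per2 was 2190.4 normalised counts in replicate 1 of 2% RPS and 1708.3 in replicate 4 of 10% RPS, each above the other 4 mice on that diet. Hlf was 566.8 in the same replicate 4 of 10% RPS. Nfil3 was 438.7 in replicate 3 of 2% RPS, a library with high Bmal1 and low Dbp. The causes were not tested.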

How the results depend on the processing

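No paired analysis was possible because no label numbers the mice alike across diets. For 10% against 0% RPS, the number of clock genes called was 1 (Per2) without the 3 libraries outside the run of animal numbers, 1 (Per1) without the 4 libraries lowest in Dbp, a set left out after seeing the data, and 0 to 2 with each library left out in turn (Per1 without replicate 2 of 0% RPS, and Per1 and Per2 without replicate 4 of 10% RPS). In the other 5 contrasts and over the 4 diets it was 0 under each alternative run. For the dose trend it was 0 with edgeR, 0 with the smooth muscle score as a covariate, and 0 to 2 with each library left out, and without the 3 libraries it was Per2 (adjusted p = 0.0339) in place of Per1 (0.0619). The number of clock genes associated with Bmal1 was 5 to 8 with each library left out. All genes associated with Bmal1 numbered 448 with edgeR, 375 without the 3 libraries, 140 without the 4, and 432 to 1008 with each library left out, with 432 without replicate 2 of 0% RPS and 449 without replicate 4 of 10% RPS, against 766. The correlation of Per1 with Bmal1 was -0.4 without the 2 libraries farthest from the median, -0.48 without the 3, and -0.644 to -0.375 with each library left out. That of Cry1 was 0.161 without the 4. That of Nr1d1 was -0.137 by Spearman's rank, -0.125 without the 2, 0.335 without the 4, and -0.549 to -0.273 with each library left out. The causes were not tested. edgeR called fewer of all genes than DESeq2: 40 against 113 for 10% against 0% RPS, 7 against 55 for 5% against 0%, 0 against 3 for 2% against 0%, 0 against 7 for 10% against 2%, 0 against 1 for 10% against 5%, 7 against 299 over the 4 diets, and 165 against 538 for the trend. With 5 mice per diet and a wide spread within diets, the intervals for Dbp and Ciart were wide.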

Other observations

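Among the 20 genes with the smallest adjusted p that rose with Bmal1, 7 encode chaperones or proteins that work with them, which help other proteins to fold: Hsp90aa1, Hsph1, Hspa4l, Stip1, Ahsa1, Hspa8 and Hsp90ab1. They were singled out after their values were seen, and the counts are a description. A list of 18 chaperone genes, these 7 included, was drawn up after the values were seen. Of them 13 passed for association with Bmal1 in DESeq2 and in edgeR, where 6.09% and 3.62% of all genes did. Hspa4, Hspa9, Hspb1, Hspd1 and Hspe1 did not, with slopes of -0.002 to 0.11. Without the 4 libraries lowest in Dbp, Hspa1a, Hspa1b, Dnajb1, Bag3 and Chordc1 did not pass either (adjusted p of 0.478 to 0.988, DESeq2). Hsp90aa1 ranged from 5911 to 22109 normalised counts and rose by 0.42 per SD of log2 Bmal1 (SE 0.06). Without the 4 libraries lowest in Dbp it rose by 0.33 per SD of the libraries kept. Hsph1 ranged from 1522 to 13807 and rose by 0.78 (SE 0.11). Hspa8 ranged from 31359 to 97791 and rose by 0.42 (SE 0.07). Without the 4 libraries Hsph1 rose by 0.54 (adjusted p = 0.0151), and Hspa8 had a slope of 0.265 and did not pass (adjusted p = 0.051, DESeq2). Each of these 3 had its highest value in replicate 2 of 0% RPS, the library highest in Bmal1, and without that library the slopes were 0.34, 0.68 and 0.40. All slopes with libraries left out are per SD of log2 Bmal1 in the libraries kept, so their sizes are not comparable with those over 20 libraries. Of these 7 genes, 0 were called for 10% against 0% RPS in DESeq2 and in edgeR, with 0 at an unadjusted p under 0.05.

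Cipc, which encodes a protein that binds CLOCK, was also singled out after its values were seen. It fell by 0.34 per SD of log2 Bmal1 (SE 0.05). Without the 4 libraries lowest in Dbp it fell by 0.19 per SD of the libraries kept.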
